A study of Mus musculus with 6 samples.

Results

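The genes described here are Trp53, which encodes the transcription factor p53, and 9 genes tied to it: Mdm2, Mdm4, Ccng1, Zmat3, Phlda3, Bbc3, Aen, Eda2r and Tnfrsf10b. They were chosen by name, as rows of the count table that carry these symbols, and all 10 were found among 53733 named rows. Of the 10, 8 held enough counts to be tested, while Phlda3 and Eda2r stood at or near 0 in every library. The samples were leukaemic cells of a single mouse line, made from foetal liver cells by retroviral transduction with MLL-AF9, expressed constitutively together with a Luc2 luciferase, and with FLT3-ITD behind the doxycycline-inducible TRE-tight promoter together with DsRED. MLL-AF9 is a leukaemogenic fusion of a chromatin regulator, and FLT3-ITD is a constantly active form of the receptor tyrosine kinase FLT3. Each recipient was an NSG mouse, a strain without functional B, T and NK cells, and received the cells by tail vein, after which doxycycline in food and water kept FLT3-ITD on for 96 h. In the OFF group (3 mice) doxycycline was then removed for 48 h so that FLT3-ITD was depleted. In the ON group (3 mice) doxycycline was continued for the same 48 h. MLL-AF9 was present in both groups, which therefore differ in doxycycline as well as in FLT3-ITD. The marrow was sorted for leukaemic cells that were alive (the markers of the gate were not stated), and RNA was sequenced from the 3' ends of transcripts, with 1 library per mouse. Neither age nor sex of the mice was stated. The 3 libraries of a group are separate mice that received the same line, so the spread between them is a spread between recipients and not between independent leukaemias.

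p53 is a transcription factor that DNA damage, oncogene signalling and disturbed ribosome production can stabilise. Its abundance is set largely at the level of the protein: Mdm2, a ubiquitin ligase, marks p53 for destruction, and Mdm4, a relative of Mdm2, binds p53 and blocks its activity. Mdm2 is itself a p53 target, which closes a feedback loop. Other targets halt the cell cycle, repair DNA or trigger cell death, and in acute myeloid leukaemia the pathway is best known through mutation of the gene or excess of its inhibitors. The level of Trp53 mRNA is therefore a weak guide to p53 activity, and target transcripts are commonly read in its place. The counts per gene used here show neither the p53 protein nor the sequence of the Trp53 alleles in the line.

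Libraries held between 8335234 and 9316361 counts in named rows. Levels are given in counts-per-million units (CPM), with library totals scaled by TMM normalisation, and a single count equalled 0.124 CPM in the shallowest library. Endogenous Flt3 stood at 5.44, 5.90 and 9.13 CPM in OFF libraries and at 5.48, 5.81 and 5.71 CPM in ON libraries, but its row covers the mouse gene and does not check depletion of the FLT3-ITD vector. OFF replicate 3 lay apart from the other OFF libraries on a principal component of log2 CPM (-29.3, against 23.9 and 14.4 for OFF replicates 1 and 2). Of 11 markers of leukaemic myeloid cells, 10 were tested, and their summed level was 4268 to 4489 CPM in OFF and 2518 to 2905 CPM in ON, with 7 higher in OFF, 1 lower (Ctsg, -0.39) and 2 not called (Hoxa9 and Cebpa). All 8 markers of T and NK cells fell below the minimum for testing. Of 8 B cell markers 2 were tested and both were higher in OFF (Ighm and Vpreb1), with sums of 9.77 to 13.6 CPM in OFF and 3.19 to 6.51 CPM in ON. Of 6 megakaryocyte markers only 1, Gp1bb, was tested, and it was higher in OFF by 0.71 on the log2 scale. The other megakaryocyte markers fell below the minimum for testing. Of 8 stromal and endothelial markers 1 was tested and was not called. Erythroid markers summed to 614 to 961 CPM in OFF and 188 to 263 CPM in ON, most of it globin, with 5 of 6 tested markers higher in OFF and 1 lower (Tfrc, -0.65), while the erythroid transcription factor gene Klf1 averaged 0.479 CPM in OFF and 0.460 CPM in ON. The 10 early response and heat shock genes listed as possible markers of cell handling moved the other way. They summed to 110 to 144 CPM in OFF and 271 to 355 CPM in ON, and 7 of the 9 tested were lower in OFF. Whether these falls reflect handling or the withdrawal itself was not tested. In RNA from many cells, fewer cells of a type and less RNA per cell cannot be told apart. With edgeR's quasi-likelihood test at an adjusted p of 0.05, 4746 of 13652 rows were called (34.8%).

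Withdrawal of doxycycline left Trp53, its inhibitors Mdm2 and Mdm4, Ccng1 and the death gene Bbc3 without a change that passed the test, and 3 other targets fell. The death receptor gene Tnfrsf10b was 2.99-fold lower in OFF, the nuclease gene Aen 1.93-fold lower and the RNA-binding protein gene Zmat3 1.86-fold lower. None of the 8 tested members rose. Without OFF replicate 3, which stands apart, 3 members were again called and all were lower, with Mdm2 in the place of Zmat3. The 3 called of 8 tested (37.5%) lie close to the 34.8% called among all rows. By direction, 17.5% of all rows were lower in OFF and 17.3% higher. The same 3 are those tested members whose OFF and ON values did not overlap. Among all rows 48.3% did not overlap, with OFF below in 24.5%. The median log2 fold change of the 8 tested members was -0.19, and that of all tested rows was 0.00432. None of the 10 members shares annotated exonic bases with another gene.

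**Figure D1:**
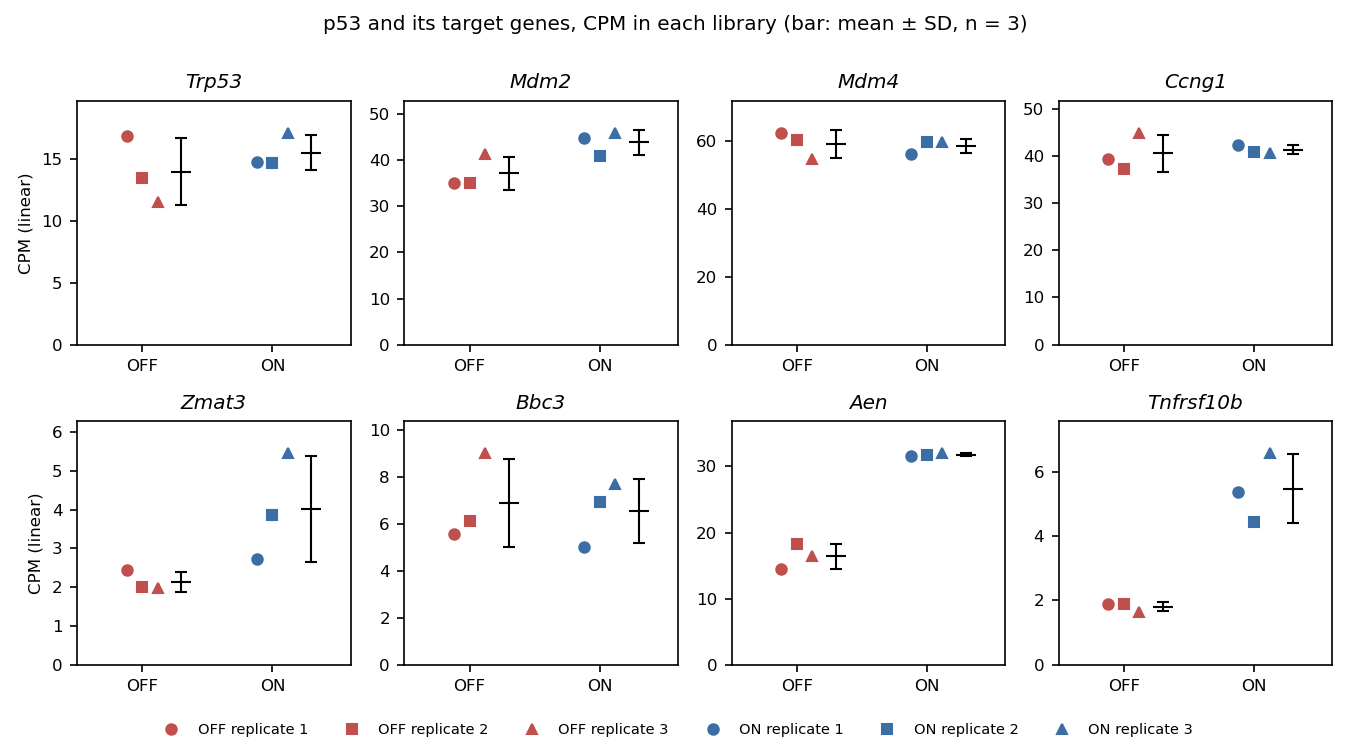
Level of each tested member in CPM (linear axis from 0) in the 3 OFF libraries (left, red) and the 3 ON libraries (right, blue), with symbols for replicates and a bar for mean ± SD (n = 3). In the panels of Aen, Tnfrsf10b and Zmat3 all OFF points lie below all ON points, while in the panels of Trp53, Mdm2, Mdm4, Ccng1 and Bbc3 the groups overlap.

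Trp53 (GRCm38 chromosome 11, 69580359 to 69591873, plus strand) stood at 16.9, 13.5 and 11.6 CPM in OFF libraries and at 14.7, 14.7 and 17.1 CPM in ON libraries. OFF replicate 3 was the lowest and ON replicate 3 the highest, and the groups overlapped. The log2 fold change was -0.15 (95% interval -0.49 to 0.19, SE 0.16), with an adjusted p of 0.506. A fall of 1 log2 unit, as seen for Aen, thus lies outside the interval for the Trp53 transcript.

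Of the inhibitors, Mdm2 (chromosome 10, 117688875 to 117710758, minus strand) was measured at 35.1, 35.1 and 41.3 CPM in OFF and at 44.8, 40.8 and 45.9 CPM in ON. Its OFF replicates 1 and 2 were below every ON library, and OFF replicate 3 was above ON replicate 2. The log2 fold change of -0.24 did not pass (SE 0.12, 95% interval -0.49 to 0.01, adjusted p = 0.129), but without OFF replicate 3 it was -0.32 and passed (adjusted p = 0.0238). Mdm4 (chromosome 1, 132959484 to 133030561, minus strand) was at 62.3, 60.1 and 54.5 CPM in OFF and at 56.0, 59.5 and 59.5 CPM in ON. OFF held both the highest and the lowest of its 6 values. The log2 fold change was 0.02 (SE 0.11, 95% interval -0.21 to 0.24, adjusted p = 0.927), with a sign that turned when any of several settings changed.

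Ccng1 (chromosome 11, 40748552 to 40755311, minus strand) encodes an atypical cyclin that brings a phosphatase to Mdm2, and is among the most regularly induced p53 targets. It was measured at 39.4, 37.3 and 44.9 CPM in OFF and at 42.4, 40.8 and 40.7 CPM in ON, and the OFF values lay on both sides of the ON values. Its log2 fold change was -0.03 (SE 0.11, 95% interval -0.27 to 0.22, adjusted p = 0.885), also of unstable sign.

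Zmat3 (chromosome 3, 32334792 to 32366014, minus strand), a zinc finger protein that binds RNA and alters splicing and stability of transcripts, was at 2.44, 2.00 and 1.98 CPM in OFF and at 2.74, 3.87 and 5.46 CPM in ON. These values rest on 22, 18 and 18 counts in OFF and on 24, 34 and 44 counts in ON. The groups did not overlap, but ON replicate 1 lay just above OFF replicate 1. Zmat3 fell by 0.90 on the log2 scale (SE 0.31, adjusted p = 0.0352). The call was lost without OFF replicate 2 (adjusted p = 0.108), OFF replicate 3 (0.0517), ON replicate 2 (0.0864) or ON replicate 3 (0.207), and with DESeq2 (0.0994), limma-voom (0.0516) or a replicate block (0.0513).

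Phlda3 (chromosome 1, 135766119 to 135769136, plus strand), whose product competes with the kinase Akt for membrane lipids, had 0, 0 and 0 counts in OFF and 1, 1 and 1 in ON. Both groups lie under 3 counts per library, the limit that a count of 0 allows, so no fold change is given.

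Among the death effectors, Bbc3 (chromosome 7, 16308393 to 16318205, plus strand) encodes PUMA, a BH3-only protein that opens the mitochondrial route to apoptosis. It was at 5.55, 6.13 and 9.02 CPM in OFF and at 5.02, 6.95 and 7.69 CPM in ON. OFF replicate 3 was the highest library and the groups overlapped, with a log2 fold change of 0.08 (SE 0.23, 95% interval -0.42 to 0.58, adjusted p = 0.828) whose sign turned without OFF replicate 3 (-0.16) or ON replicate 1 (-0.08).

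Aen (chromosome 7, 78895854 to 78911209, plus strand), a nuclear exonuclease that p53 induces and that enhances apoptosis, stood at 14.4, 18.3 and 16.5 CPM in OFF and at 31.5, 31.7 and 32.0 CPM in ON. The ON libraries lay close together, and every OFF library was far below them. Aen averaged 16.4 ± 1.92 CPM in OFF and 31.7 ± 0.248 CPM in ON (SD, n = 3 each), and it fell by 0.95 on the log2 scale (SE 0.13, 95% interval -1.22 to -0.68, adjusted p = 6.23e-05). The adjusted p for Aen was at most 0.00127 in each of the 15 other settings.

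Of the death receptors, Tnfrsf10b (chromosome 14, 69767472 to 69784411, plus strand), the receptor for the death ligand TRAIL, had 17, 17 and 15 counts in OFF and 47, 39 and 53 counts in ON. These are 1.89, 1.89 and 1.65 CPM in OFF and 5.37, 4.44 and 6.57 CPM in ON, so that the highest OFF library stayed below the lowest ON library. Tnfrsf10b averaged 1.81 ± 0.139 CPM in OFF and 5.46 ± 1.07 CPM in ON (SD, n = 3 each) and fell by 1.58 on the log2 scale (SE 0.27, 95% interval -2.16 to -1.001, adjusted p = 0.000457). It passed in all 15 other settings, with an adjusted p of at most 0.00493 and log2 fold changes from -1.71 to -1.44. By the size of its fold change Tnfrsf10b ranked 441 among the 13652 tested rows. Eda2r (chromosome X, 97333840 to 97377216, minus strand), a receptor for an ectodysplasin, had 0 counts in all 6 libraries, which allows a level of up to 0.372 CPM in the shallowest of them. Such limits cover counting error only.

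**Figure D2:**
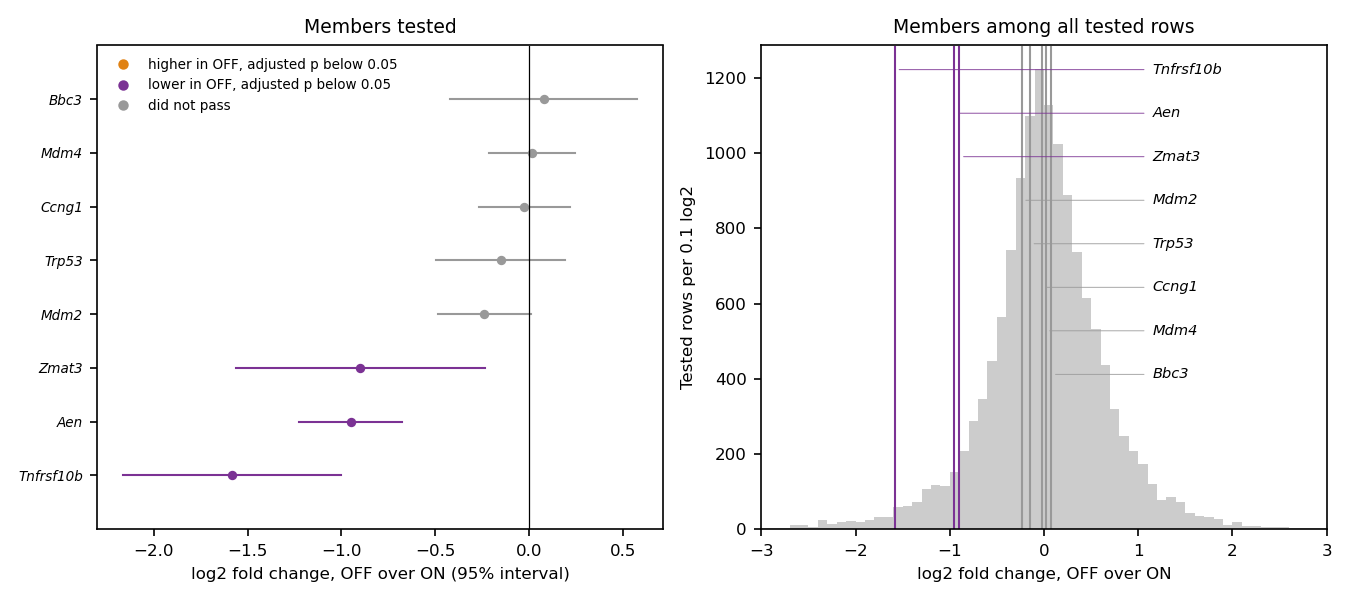
Left, log2 fold change of OFF over ON for each tested member with its 95% interval, in purple where the adjusted p was below 0.05 and grey where it was not; right, the members (lines) on the histogram of log2 fold changes of all 13652 tested rows, in bins of 0.1. Tnfrsf10b (-1.58), Aen (-0.95) and Zmat3 (-0.90) lie in the lower tail, and the other members (-0.24 to 0.08) lie around the centre.

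p53 binds DNA as a tetramer, at a pair of half-sites that may be separated by a spacer. Promoter windows from RefSeq (GRCm38.p6, 250 bases before to 50 after a start site) were present for 8 members, and Zmat3 and Tnfrsf10b had none in that table. An exact match to the p53 half-site consensus, whose 10 positions read the same on both strands, occurred in the windows of 4 of those 8 members (Trp53, Mdm2, Ccng1 and Aen). It occurred in 8.36% of all 32851 windows and in 9.55% of genes. The stretches around these half-sites are shown because they set a target that fell, Aen, beside members that did not pass, with the cell cycle inhibitor gene Cdkn1a, a target outside the members, for comparison. Capitals mark the half-site, and each is written 5' to 3' on the strand of its gene.
Aen, chr7:78895927-78895956, plus strand: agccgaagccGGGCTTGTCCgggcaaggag
Ccng1, chr11:40755437-40755496, minus strand: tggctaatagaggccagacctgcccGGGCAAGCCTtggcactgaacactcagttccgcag
Mdm2, chr10:117710910-117710969, minus strand: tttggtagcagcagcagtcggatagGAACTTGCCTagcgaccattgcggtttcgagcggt
Trp53, chr11:69580259-69580318, plus strand: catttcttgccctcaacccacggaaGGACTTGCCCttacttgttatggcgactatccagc
Cdkn1a, chr17:29090881-29090940, plus strand: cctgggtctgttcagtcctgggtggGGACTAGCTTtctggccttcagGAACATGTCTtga
A full site was defined as 2 half-sites 0 to 13 bases apart with the central C and G of each intact and at most 1 other mismatch in 20. Ccng1 was the only member with one, made of its marked half-site and the 10 bases directly before it with 1 mismatch. Cdkn1a held a full site with 0 mismatches and a spacer of 12 bases, made of its 2 marked half-sites. The later of these also formed a full site, with 1 mismatch, with the 10 bases directly after it, which run past the end of the stretch shown. Full sites occurred in 0.718% of genes. A match describes these letters and does not show binding, and many p53 sites lie in introns outside these windows. The search covered the members and 15 named other p53 targets, of which 8 and 12 had a window. Among these, Ccng1, Cdkn1a and Rps27l held a full site, and their log2 fold changes were -0.03, -1.47 and -0.53. The named regulators and cell cycle genes were not searched.

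The wider set of p53 targets moved in both directions. Of 66 other p53 target genes, 55 were tested, 11 fell and 9 rose, and 35 did not pass. The 36.4% called lie close to the 34.8% of all rows, and the list median was 0.07. Leaving out ON replicate 2 reduced the calls to 12 of 55, with 6 in each direction. In that setting calls among all rows also fell, to 3293 of 14021, from 4746 of 13652.

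Cdkn1a, which encodes the cyclin-dependent kinase inhibitor p21, was at 36.2, 28.8 and 31.5 CPM in OFF and at 85.8, 96.9 and 84.7 CPM in ON. Every OFF library lay far below every ON library, and the gene fell by 1.47 on the log2 scale (SE 0.12, adjusted p = 1.06e-06). Tigar, a phosphatase that restrains glycolysis, averaged 21.7 ± 1.28 CPM in OFF and 47.1 ± 2.05 CPM in ON (log2 fold change -1.12, adjusted p = 7.31e-06). Ddit4 and Sesn2 encode inhibitors of mTORC1 that stress programmes other than p53 also induce. Ddit4 averaged 5.80 ± 1.07 CPM in OFF and 15.01 ± 3.67 CPM in ON (-1.37, adjusted p = 0.000156), and Sesn2 4.36 ± 0.582 CPM in OFF and 8.47 ± 0.576 CPM in ON (-0.96, adjusted p = 0.0019). Rps27l, a relative of the ribosomal protein Rps27, changed by -0.53 (adjusted p = 0.00195). The phosphatase Ppm1d, which damps p53 signalling, changed by -0.52 (adjusted p = 0.034). That call was lost without OFF replicate 2 (0.0518), OFF replicate 3 (0.0671), ON replicate 2 (0.197) or ON replicate 3 (0.099) and with DESeq2 (0.0831). Of the 9 tested early response and heat shock genes given above, 7 were also lower in OFF, beside 17.5% of all rows. Several p53 targets are stress-induced genes. The part of handling in the falls of these targets was not tested.

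In the other direction, Trp53inp1, which promotes autophagy and p53-dependent death, was at 16.7, 20.7 and 23.9 CPM in OFF and at 7.31, 6.38 and 8.19 CPM in ON. All OFF libraries lay above all ON libraries, and the gene rose by 1.49 on the log2 scale (SE 0.17, adjusted p = 1.86e-05). Xpc, the damage sensor of nucleotide excision repair, averaged 108 ± 7.83 CPM in OFF and 54.2 ± 5.22 CPM in ON (1.00, adjusted p = 1.58e-05). The carbonyl reductase gene Dcxr (1.13, adjusted p = 0.000789) and the phosphatidate phosphatase gene Lpin1 (1.06, adjusted p = 0.000845) also rose. So did Rchy1, a ubiquitin ligase for p53 (28.4 ± 5.40 CPM in OFF and 16.5 ± 1.48 CPM in ON, 0.79, adjusted p = 0.00107), and the lipase gene Abhd4 (0.66, adjusted p = 0.0122, or 0.0746 without ON replicate 2). Of the tested markers, 5 of 6 erythroid and 7 of 10 leukaemic myeloid genes were also higher in OFF, with 1 lower in each list. Among all rows 17.3% were higher in OFF. The part of these markers in the rises was not tested. Rchy1 shares 680 exonic bases with Thap6 on the opposite strand, and Cdkn1a, Bax and Tigar share 273, 192 and 122 exonic bases with other annotated genes, in each case away from the 3' end where reads of this kit start.

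The death genes Bax, Pmaip1 and Fas of the same list did not pass. Bax, which permeabilises the mitochondrial outer membrane, was at 5.66, 4.57 and 3.41 CPM in OFF and at 6.85, 6.04 and 6.57 CPM in ON. Its groups did not overlap, and the log2 fold change was -0.51 (adjusted p = 0.0962, or 0.0302 without OFF replicate 1). Pmaip1, which encodes the BH3-only protein NOXA, gave -0.12 (95% interval -0.46 to 0.22, adjusted p = 0.598), and the death receptor gene Fas gave 0.02 (95% interval -0.80 to 0.84, adjusted p = 0.973). The signs of Pmaip1 and Fas turned when single libraries were left out.

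**Figure D3:**
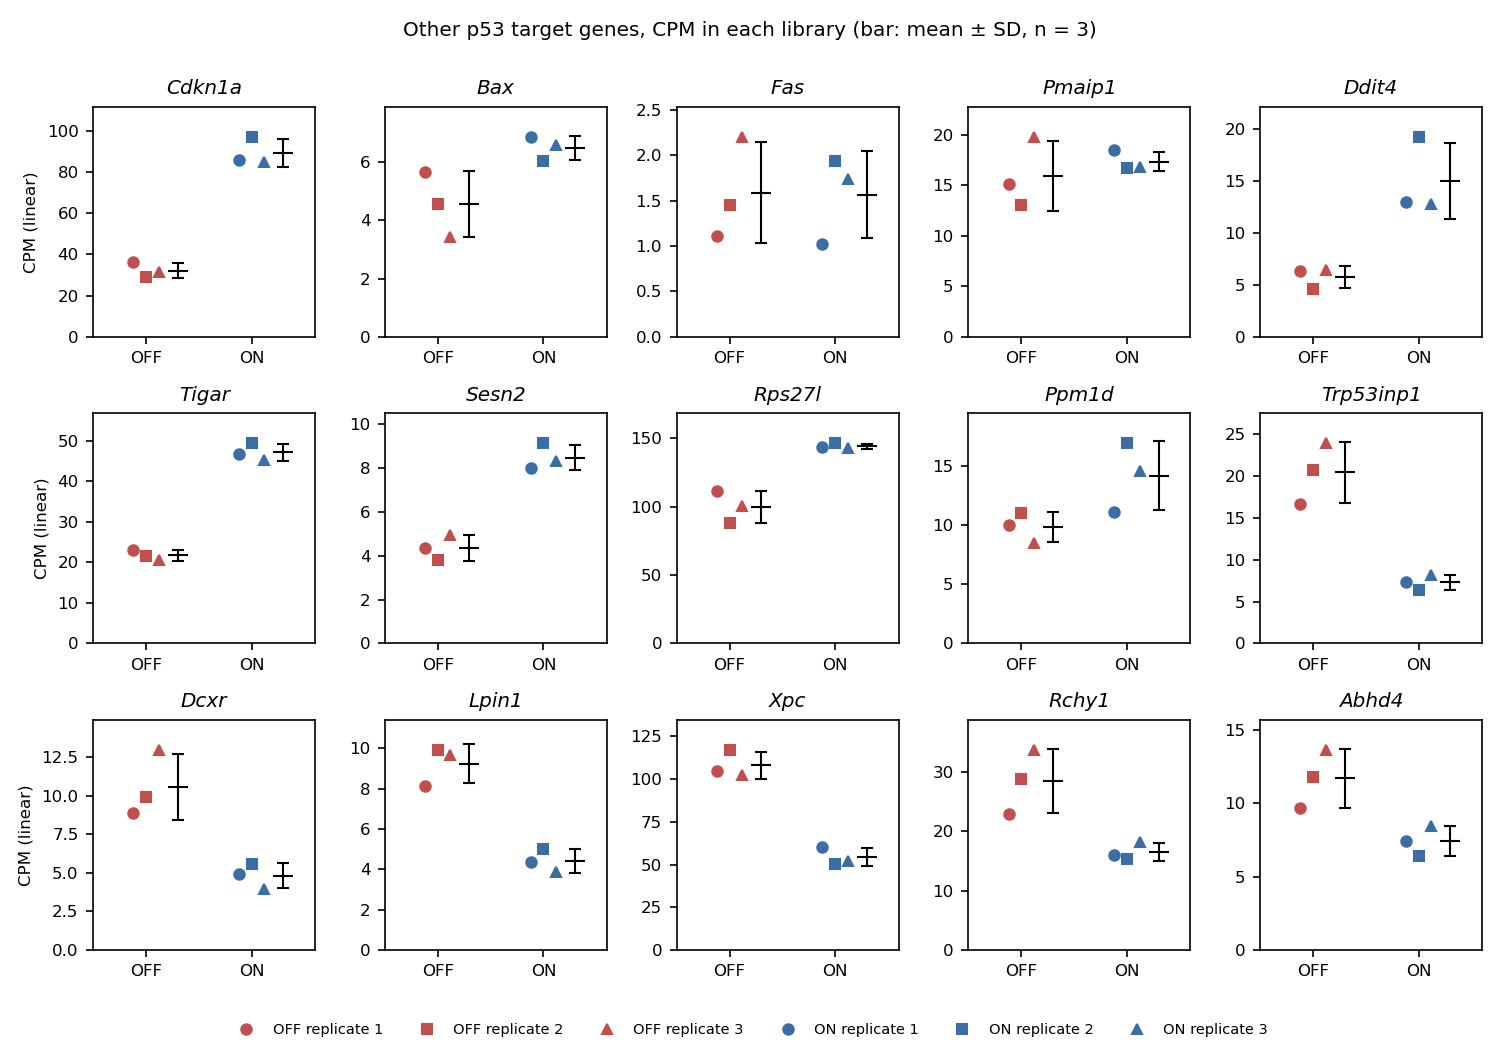
Level of the named other p53 target genes in CPM (linear axes from 0) in the 3 OFF libraries (left, red) and the 3 ON libraries (right, blue), with symbols for replicates and a bar for mean ± SD (n = 3). OFF points lie below ON points for Cdkn1a, Bax, Ddit4, Tigar, Sesn2, Rps27l and Ppm1d, above them for Trp53inp1, Dcxr, Lpin1, Xpc, Rchy1 and Abhd4, and among them for Fas and Pmaip1.

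**Figure D4:**
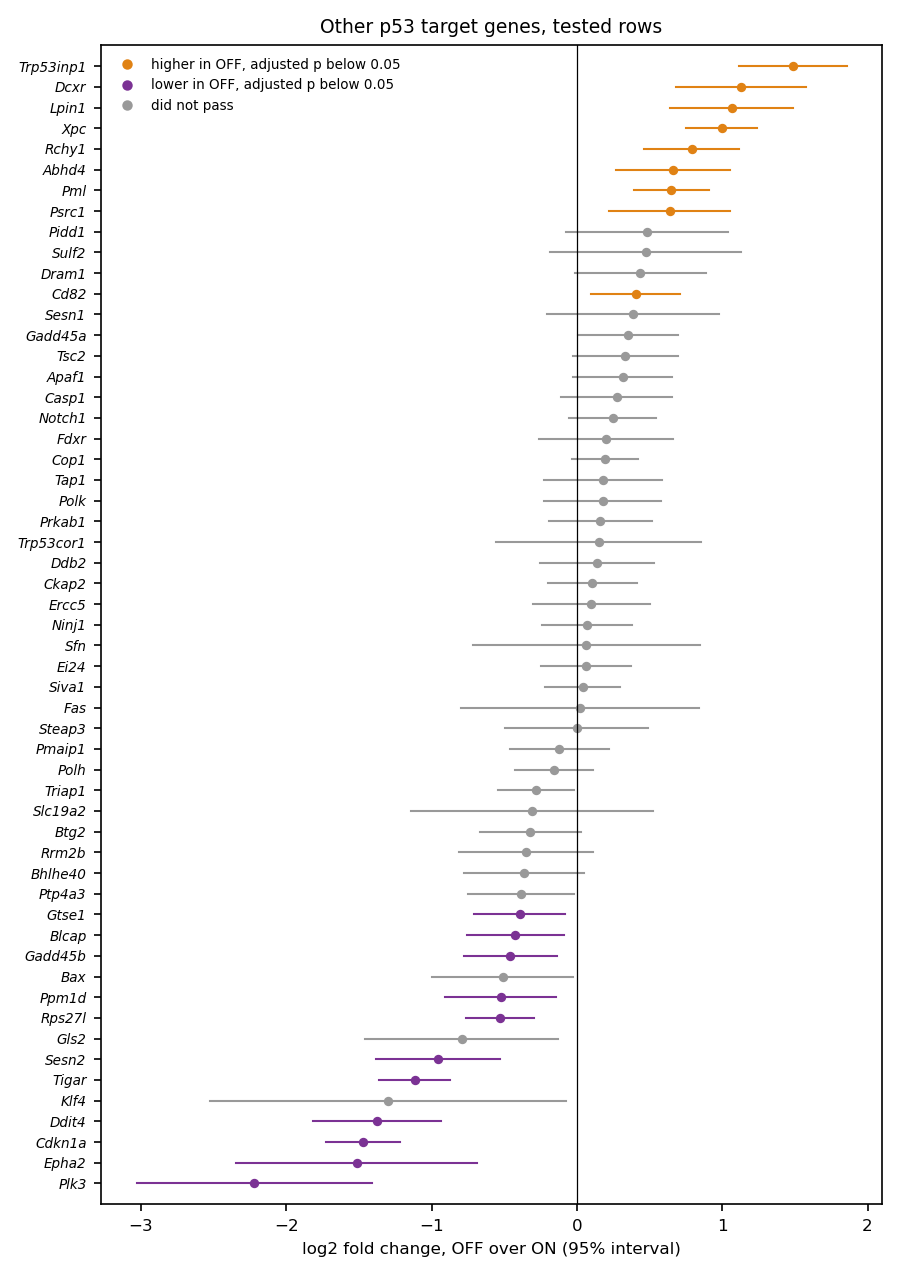
Log2 fold change of OFF over ON with its 95% interval for the 55 tested genes among the other p53 targets, ordered by size. Orange marks the 9 genes that were higher in OFF, purple the 11 that were lower and grey the 35 that did not pass, on both sides of 0.

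The regulators of p53 also held genes called in both directions. Of 40 regulators of p53, 38 were tested, 9 fell, 2 rose and 27 did not pass (23.7% lower and 5.26% higher, beside 17.5% and 17.3% of all rows), with a list median of -0.08. Calls among them numbered 7 without OFF replicate 2, 7 without ON replicate 1, 7 without ON replicate 2 and 6 without ON replicate 3. With all libraries 11 were called. Among all rows, calls in those settings numbered 3504, 3500, 3293 and 3358, against 4746 with all libraries. Without OFF replicate 1 or OFF replicate 3 the regulators gave 13 and 16 calls, and all rows gave 5444 and 5248. Gnl3 (nucleostemin), a nucleolar GTPase that binds Mdm2, was at 52.9, 30.6 and 28.5 CPM in OFF and at 165, 166 and 170 CPM in ON. Its OFF libraries lay far below its ON libraries, with OFF replicate 1 the highest of the OFF group, and it fell by 2.16 on the log2 scale (SE 0.20, adjusted p = 1.64e-05). Gnl3 hosts small nucleolar RNAs that overlap its annotated exons. Usp10, which removes ubiquitin from p53, averaged 14.0 ± 3.13 CPM in OFF and 36.2 ± 3.40 CPM in ON (-1.37, adjusted p = 1.46e-05). Mybbp1a, a nucleolar protein that can activate p53, averaged 67.4 ± 22.3 CPM in OFF and 147 ± 4.37 CPM in ON (-1.13, adjusted p = 0.000579). Its 3' end shares 131 exonic bases with Spns2 on the opposite strand, a row at 1.66 CPM.

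Cdkn2a, whose Arf product sequesters Mdm2, was at 4.89, 6.46 and 6.60 CPM in OFF and at 6.51, 5.92 and 5.33 CPM in ON. The groups overlapped (log2 fold change 0.01, 95% interval -0.43 to 0.46, adjusted p = 0.97, with a sign that turned in 5 other settings). The ribosomal proteins Rpl5 and Rpl11, which bind Mdm2 when ribosome assembly is disturbed and are named here after their values were seen, gave -0.13 (adjusted p = 0.314) and -0.22 (adjusted p = 0.0956). Prkdc, a DNA damage kinase, was 0.37 higher on the log2 scale (adjusted p = 0.0464). That call was lost in 9 of 15 other settings, among them each library left out except OFF replicate 3 (adjusted p from 0.0774 to 0.151).

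p21 is known to restrain the cell cycle through the DREAM complex, which represses genes of division. Of 22 cell cycle genes repressed through p53, p21 and DREAM, or forming that complex, 22 were tested, 2 rose, 2 fell and 18 did not pass (18.2% called, beside 34.8% of all rows), with a list median of -0.11. Without OFF replicate 3, 9 of the 22 were called, 2 higher and 7 lower, beside 5248 of 13957 among all rows in that setting. Mybl2, a transcription factor of proliferating cells, averaged 32.7 ± 5.45 CPM in OFF and 58.6 ± 2.07 CPM in ON (-0.84, adjusted p = 0.00017). E2f4, the repressive E2F of the complex, changed by -0.54 (adjusted p = 0.00468). Its pocket protein Rbl2 averaged 40.2 ± 2.24 CPM in OFF and 26.8 ± 1.23 CPM in ON (0.58, adjusted p = 0.00119). The 3' end of Rbl2 shares 693 exonic bases with Aktip on the opposite strand, which was higher by 0.40 (adjusted p = 0.0315), and without the strand setting of the counting the reads of both cannot be told apart. The mitotic cyclin gene Ccnb2 rose by 0.42 (adjusted p = 0.00751, or 0.0676 without ON replicate 3).

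**Figure D5:**
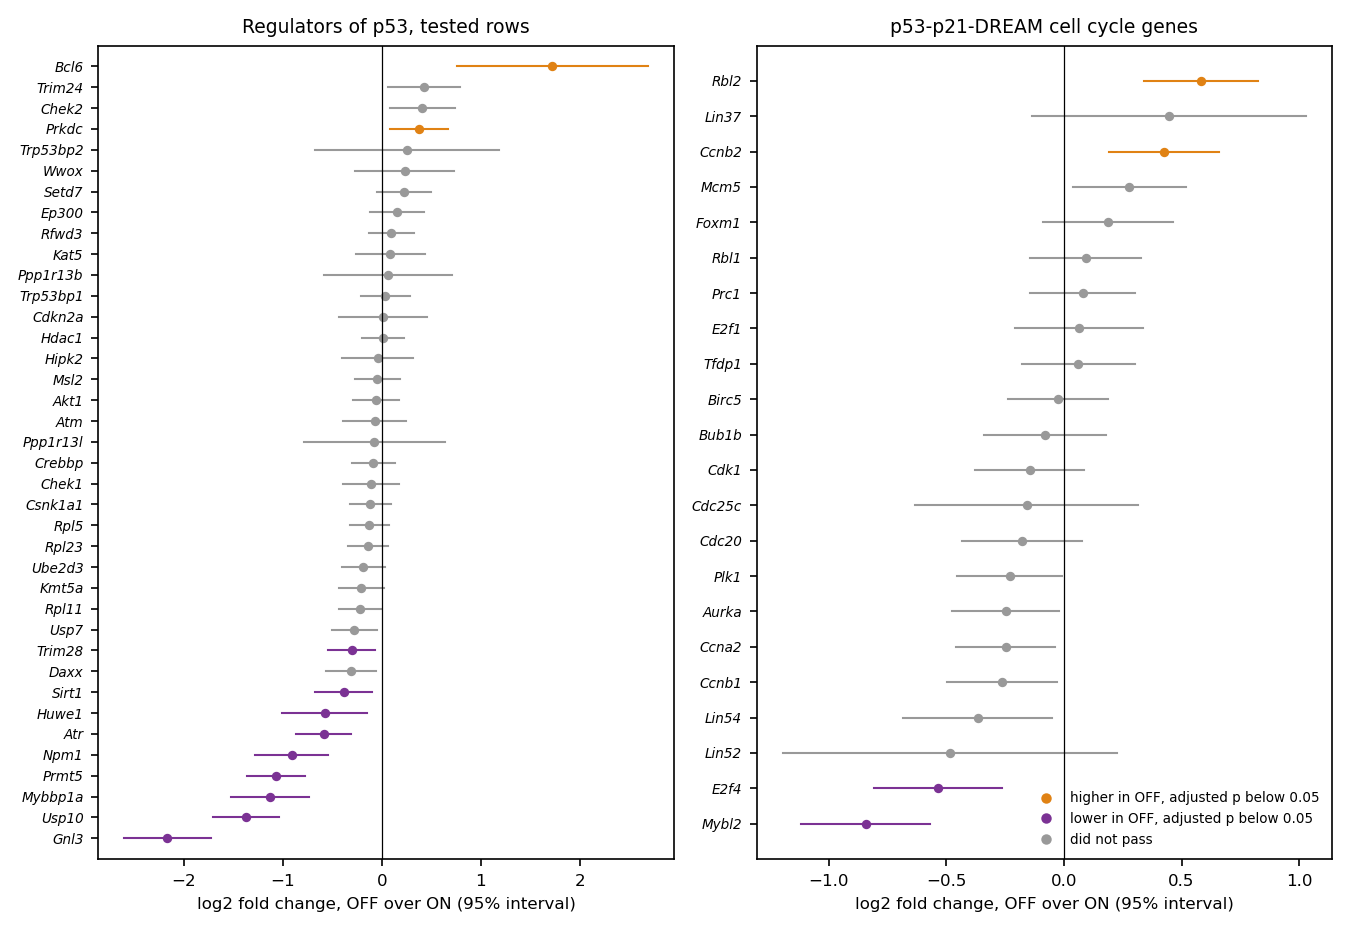
Log2 fold change of OFF over ON with its 95% interval for the 38 tested regulators of p53 (left) and the 22 cell cycle genes of the p53, p21 and DREAM list (right), with orange for higher, purple for lower and grey for genes that did not pass. Gnl3 (-2.16) lies at the low end on the left, and most cell cycle genes lie within 0.5 of 0.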

How the data were processed

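Per the submitters' processing notes, the tools were HISAT2 2.0.4, featureCounts of Subread 1.6.3, cutadapt 1.9.1 and limma 3.42.2, with build mm10. The annotation and strand setting were not stated. Per the labels' protocols, the QuantSeq 3' kit of Lexogen was used, so a count reflects transcript ends and levels are compared within a gene. The authors' deposited table holds raw counts; 1105 rows without a name (0.145% to 0.172% of counts) were left out. The authors' deposited log2 table of 12287 rows, with column quantiles made nearly equal, served as an alternative.

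Counts were tested with edgeR 4.0.16 in R 4.3.3: filterByExpr (minimum count 10), TMM, glmQLFit and glmQLFTest, OFF against ON, with Benjamini-Hochberg adjustment over all 13652 tested rows at 0.05. The SE is the log2 fold change divided by the square root of F. An exact permutation of 3 against 3 cannot go below 0.1. The fit was tested on simulated data. Replicates in each group differed by more than sampling noise (chi-square per degree of freedom of 2.98 or more). The largest values were those of OFF replicate 3 with OFF replicates 1 and 2 (39.5 and 27.9). Rows of ribosomal RNA, which were kept in that comparison, held 18.0%, 17.2% and 10.1% of counts in OFF replicates 1, 2 and 3. In ON replicates 1, 2 and 3 they held 12.1%, 11.3% and 16.2%, and their part in the differences was not tested. Same-numbered OFF and ON libraries did not deviate together (r of 0.03, -0.08 and -0.05).

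Members and lists were chosen with earlier results of these data known. Named are all members, Cdkn1a, Bax, Fas, Pmaip1, Cdkn2a and Flt3, the 6 called other targets with the largest change in each direction at a mean of at least 5 CPM, and the 3 such genes in each direction among regulators and cell cycle genes; fewer are named where fewer passed. Coordinates and overlaps are from GENCODE M21 (GRCm38). Alternatives were other scalings, filters and tests, a replicate block and each library left out.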

Additional observations from a re-analysis of the deposited data

How the results depend on the processing

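Each of the 15 alternatives kept the counts of called rows (3293 to 5444, against 4746) and of called members (2 to 3, against 3) within 1.5 times the main value. Of 479 single-gene values over 32 genes, 439 kept direction and call, 23 lost the call, 2 gained it and 15 turned sign, none of the last being a called gene; the cause was not tested. With no filter on low counts, Mdm4 gave -0.00257 and Cdkn2a -0.00492, and in the authors' log2 table with limma Ccng1 gave 0.00622 and Cdkn2a -0.032. On leaving out each library in turn, values ranged from -0.026 to 0.075 for Mdm4, -0.10 to 0.031 for Ccng1, -0.16 to 0.21 for Bbc3, -0.28 to 0.22 for Fas, -0.30 to 0.00745 for Pmaip1 and -0.061 to 0.14 for Cdkn2a. Calls ranged from 12 to 23 for other targets, 6 to 16 for regulators and 3 to 9 for cell cycle genes. Replicate numbers do not pair the mice; with a replicate block 4403 rows were called, and Zmat3 (adjusted p = 0.0513) and Prkdc (0.0687) were lost among named genes. Depth limits Zmat3, Tnfrsf10b, Fas, Bax and Cdkn2a, at under 7 CPM in every library, and leaves Phlda3 and Eda2r undetermined.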

Other observations

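The balance of Mdm2 to its partners varied between OFF libraries. The ratio of Mdm2 to Trp53, both in CPM, was 2.08, 2.60 and 3.57 in OFF and 3.04, 2.78 and 2.68 in ON, so that OFF held both the lowest and the highest value (two-sided exact permutation p = 0.7, n = 3 each). The ratio of Mdm2 to Mdm4 was 0.563, 0.583 and 0.758 in OFF and 0.80, 0.686 and 0.771 in ON, with overlap (two-sided exact permutation p = 0.2, n = 3 each, where 0.1 is the smallest possible). Both ratios were chosen after the values were seen. Within the OFF group, replicate 3 held the highest level of Mdm2, Ccng1 and Bbc3 and the lowest of Trp53, Mdm4, Zmat3 and Tnfrsf10b.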
